A study of Mus musculus with 9 samples.

Results

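Expression of Nrf2 and of 9 genes that it is known to control was followed in mouse embryonic fibroblasts (MEFs) of 3 genotypes by RNA sequencing. The 10 genes are a list of names, known genes of the antioxidant response. No threshold on measured values was used to pick them, but they were chosen with earlier results of these data known. They are Nfe2l2, which encodes Nrf2, and Nqo1, Hmox1, Gclc, Gclm, Txnrd1, Srxn1, Slc7a11, Gsta4 and Gstm1. All 10 were found by Ensembl identifier among the 47937 genes of the count table, and all 10 were among the 15540 genes that had enough counts to be tested.

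WT cells are a clone of MEFs with a conditional Eset1 allele (E1c), which is intact until tamoxifen-inducible Cre deletes it. S1S2 cells additionally lack Suv39h1 and Suv39h2, the enzymes that trimethylate lysine 9 of histone H3 in constitutive heterochromatin. G9Gl cells additionally lack G9a and Glp, encoded by Ehmt2 and Ehmt1, which set the mono- and dimethylated states of the same lysine. Each genotype was represented by 3 libraries. Per the study's methods, which were taken to describe these libraries too, the mutants are clones obtained by CRISPR/Cas9 frameshifts in the same E1c line and were picked for the absence of the target proteins, so that genotype and clone cannot be told apart. After editing, an inducible Cre construct with puromycin resistance was introduced again and the lines were kept under puromycin. Whether the WT clone was handled in the same way is not stated, so any such difference cannot be told apart from genotype. No tamoxifen treatment is named for these libraries.

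Nrf2 is a transcription factor that is held in the cytoplasm and handed to the proteasome by Keap1, a sensor of electrophiles and oxidants. When Keap1 is modified, Nrf2 accumulates, pairs with a small Maf protein and binds the antioxidant response element (ARE) in front of genes for glutathione synthesis, thioredoxin reduction, quinone and heme breakdown and conjugation of toxic compounds. Bach1 competes for the same element and represses it. Nrf2 activity is thus set mainly at the level of the protein, which RNA sequencing does not measure. Fibroblasts depend on cystine import through Slc7a11 to make glutathione in culture, and Slc7a11 is also a target of ATF4, the transcription factor of the amino acid response.

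The known elements were looked for in the promoters of the 10 genes, because they are the letters that Nrf2 and ATF4 are known to read. RefSeq promoter windows of GRCm38.p6, from 250 bases before to 50 bases after a start site, were at hand for 7 of the 10 genes, in 10 windows. Hmox1, Gclc and Gsta4 had no entry. The ARE core, TGACNNNGC on either strand, was present in 4 of the 10 windows, those of Nfe2l2, Gclm, Txnrd1 and Srxn1, and in 12.4% of all 32851 windows. The stretches around the matches are written 5′ to 3′ on the strand of the match, with the core in capitals:
Nfe2l2, chr2:75704875-75704913, minus strand: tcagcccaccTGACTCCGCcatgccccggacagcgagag
Gclm, chr3:122245403-122245451, minus strand: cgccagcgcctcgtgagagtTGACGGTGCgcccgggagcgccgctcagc
Txnrd1, chr10:82859094-82859142, minus strand: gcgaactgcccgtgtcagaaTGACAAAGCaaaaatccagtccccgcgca
Srxn1, chr2:152105532-152105573, minus strand: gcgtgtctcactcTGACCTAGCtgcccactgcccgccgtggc
The match lay 240 bases before the start site in Nfe2l2, 134 bases before it in Gclm, 92 bases before it in Txnrd1 and 28 bases after it in Srxn1. For Txnrd1 the distance is from the start site of the window that held the match. The other windows of Txnrd1 and the windows of Nqo1, Gstm1 and Slc7a11 did not hold these letters, which says nothing of more distant elements.

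The CEBP-ATF response element that ATF4 is known to bind, TGATGNAA on either strand, was present in 3.97% of all windows and in the window of 1 of the 7 genes. That gene was Slc7a11, which had 2 matches that face each other, 66 and 47 bases before the start site. No match of either element overlapped a match of the other. The window is written 5′ to 3′ on the minus strand, that of the gene, with the 2 matches in capitals, because Slc7a11 is the gene on which several of the results below turn:
Slc7a11, chr3:50443564-50443863, minus strand: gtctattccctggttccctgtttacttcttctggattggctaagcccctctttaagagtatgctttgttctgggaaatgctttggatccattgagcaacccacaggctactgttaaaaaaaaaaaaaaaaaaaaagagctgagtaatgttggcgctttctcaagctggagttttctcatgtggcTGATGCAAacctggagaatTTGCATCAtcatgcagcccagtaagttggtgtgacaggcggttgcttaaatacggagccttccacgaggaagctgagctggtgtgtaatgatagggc
A match is a description of the letters and does not show that a factor was bound in these cells.

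Libraries held between 21319778 and 32157623 counts, and the 10 genes took 0.0748 to 0.0887% of them. The fewest counts of a member in any library were 17, for Slc7a11 in S1S2, against at least 106 for each of the other 9. Of the 12 fibroblast markers, 11 were above 3 counts in every library and Lum was at or below 3 counts in all. Their summed level was 9930 to 11400 CPM in WT (CPM, counts scaled to library size), 7410 to 7470 in S1S2 and 7840 to 8690 in G9Gl. Of the 11 that were tested, 1 rose and 8 fell in S1S2, with 7 called lower and a median log2 fold change of -1.29. In G9Gl 1 rose and 9 fell, with 1 called higher, 3 called lower and a median of -0.44. These terms are defined below. Of all tested genes, 23.6% fell and 9.0% were called in S1S2, and 21.8% fell and 10.2% were called in G9Gl. The 6 epithelial markers summed to 0.298 to 0.548 CPM in WT, 4.70 to 5.64 in S1S2 and 4.21 to 5.39 in G9Gl, and the 6 endothelial markers to 0.123 to 0.193, 1.55 to 1.75 and 0.790 to 2.35. The 6 muscle markers summed to 2.98 to 3.29, 2.70 to 3.81 and 9.93 to 11.4 CPM in the same order, and the 6 hepatocyte markers to 0 to 0.0645, 0.0470 to 0.230 and 10.3 to 11.1. Of the hepatocyte markers 4 were at 0 in every library, Alb and Ttr among them, and Afp was at least 110-fold higher in G9Gl than in WT against a floor of 3 counts per library. The 6 macrophage markers summed to 4.34 to 4.46, 3.24 to 4.09 and 4.67 to 4.96 CPM. In the epithelial and the endothelial list 2 genes each were tested, and between the mutants 1 was higher and 1 lower in G9Gl. Krt14 averaged 4.39 CPM in G9Gl, at least 33.9-fold above S1S2, and Cdh5 1.01 CPM, at least 7.81-fold above S1S2. Kdr averaged 1.22 CPM in S1S2 and 0.138 in G9Gl. The part of the markers in the results was not tested. Suv39h1 RNA was lower in S1S2 (log2 fold change -1.36, SE 0.073), whereas Suv39h2 RNA was higher there (0.70, SE 0.039). Ehmt2 and Ehmt1 RNA was lower in G9Gl (-1.20, SE 0.078, and -1.04, SE 0.030). Frameshift alleles need not lose their RNA, so these levels do not test the labels.

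Over the 10 genes, the S1S2 cells had more members below WT than above it, the G9Gl cells had more above, and changes beyond 2-fold were limited to Nqo1, Slc7a11, Gsta4 and Gstm1. "Rose" and "fell" are used for an adjusted p of at most 0.05 in edgeR, with CPM scaled by the TMM factors. In S1S2 against WT, 1 of the 10 rose and 5 fell, where 25.3% of all tested genes rose and 23.6% fell. In G9Gl against WT, 5 rose and 2 fell, against 24.1% and 21.8% of all tested genes. In G9Gl against S1S2, 8 were higher and 1 was lower, against 26.9% and 26.5%. A gene was called where it differed 2-fold or more and had an adjusted p of 0.01 or less. On these limits 4 of the 10 were called in S1S2 against WT (9.0% of all tested genes), 1 in G9Gl against WT (10.2%) and 3 between the mutants (13.1%). Both mutants were compared with the same WT libraries, so the first 2 comparisons are not independent of each other. The counts describe a list that was chosen with earlier results of these data known, and they are no test of it. The same shares of all tested genes apply to the counts of the other lists below.

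The median log2 fold change of the members was -0.22 in S1S2, 0.09 in G9Gl and 0.31 between the mutants, and that of all tested genes was -0.00317, -0.00668 and 0.000161. The 3 libraries of S1S2 did not overlap those of WT for 7 of the 10 genes, and the 3 of G9Gl did not overlap WT for 8. The same was true of 56.0% and 52.8% of all tested genes, so non-overlap by itself was common in these data. In these bulk samples, fewer cells of a kind and less RNA per cell cannot be told apart.

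**Figure D1:**
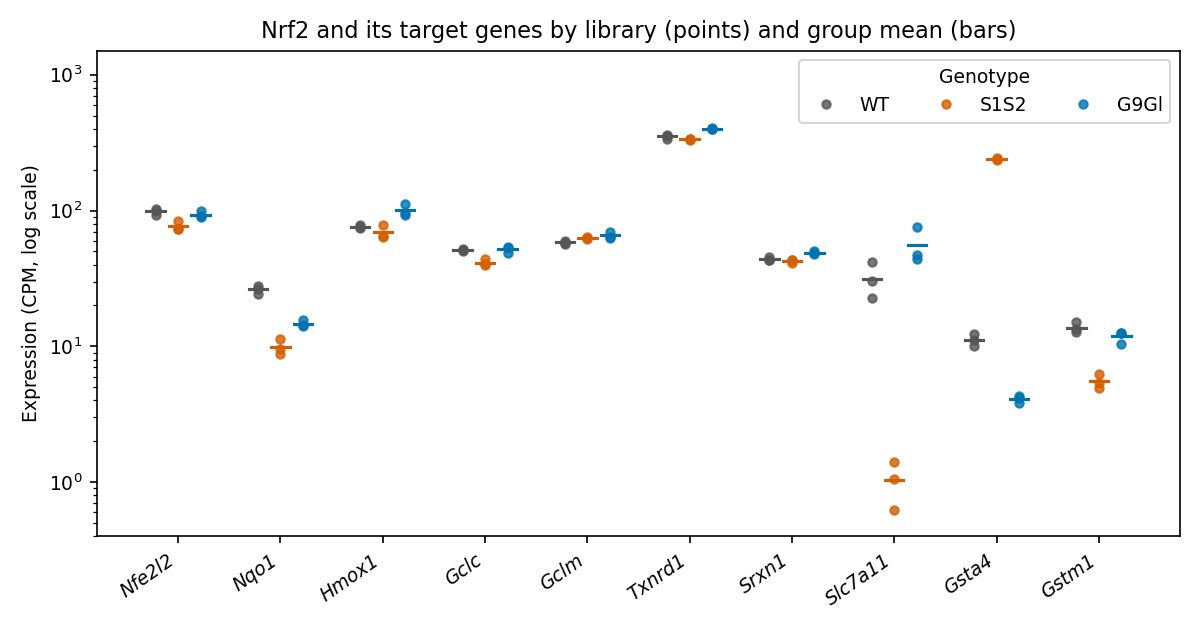
Expression of the 10 genes in CPM (counts scaled to library size, log axis) in each library (points), with the mean of the 3 libraries of a genotype as a bar. Gsta4 spans 58.1-fold and Slc7a11 53.7-fold between genotypes, in opposite directions, Nqo1 and Gstm1 are lowest in S1S2, and for each of the other 6 genes the genotypes lie within 1.45-fold.

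Differences between genotypes ranged widely over the set. The mean of the highest genotype was 58.1 times that of the lowest for Gsta4 and 53.7 times for Slc7a11, 2.64 times for Nqo1 and 2.48 times for Gstm1. For the other 6 genes it was 1.13 to 1.45 times. S1S2 was the lowest genotype for 8 of the 10 genes, the exceptions being Gclm, lowest in WT, and Gsta4, lowest in G9Gl. G9Gl was the highest for 6 genes.

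The summed level of the 10 genes was 762 ± 11.8 CPM (SD, n = 3) in WT, 882 ± 7.19 in S1S2 and 845 ± 33.6 in G9Gl. Gsta4 alone made up 27.1% of that sum in S1S2, against 1.47% in WT and 0.488% in G9Gl. Without Gsta4 the sums were 751 ± 10.7, 644 ± 11.1 and 841 ± 33.9 CPM, and S1S2 moved from the highest to the lowest genotype. The place of S1S2 in the total was therefore set by a single gene, while G9Gl was above WT with and without Gsta4.

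Per kilobase of transcript, Txnrd1 was the most abundant member in WT (97.1 CPM per kb), before Hmox1 (48.4) and Nfe2l2 (39.8). Nqo1, Srxn1 and Gclc followed at 16.9 ± 1.21, 15.6 ± 0.500 and 15.0 ± 0.167 CPM per kb (SD, n = 3), and Gsta4, Gstm1 and Gclm at 11.5 ± 1.19, 10.7 ± 0.950 and 10.4 ± 0.291. Neighbours within each of these groups of 3 lay within about their spread. Slc7a11 was last at 3.42 ± 1.03. In S1S2, Gsta4 moved to the top at 244 ± 4.11 CPM per kb, above Txnrd1 at 92.4 ± 0.799, and Slc7a11 stayed last at 0.112 ± 0.0430. In G9Gl, Txnrd1 was again first at 110 ± 0.857 and Gsta4 last at 4.21 ± 0.260, next to Slc7a11 at 5.99 ± 1.87.

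**Figure D2:**
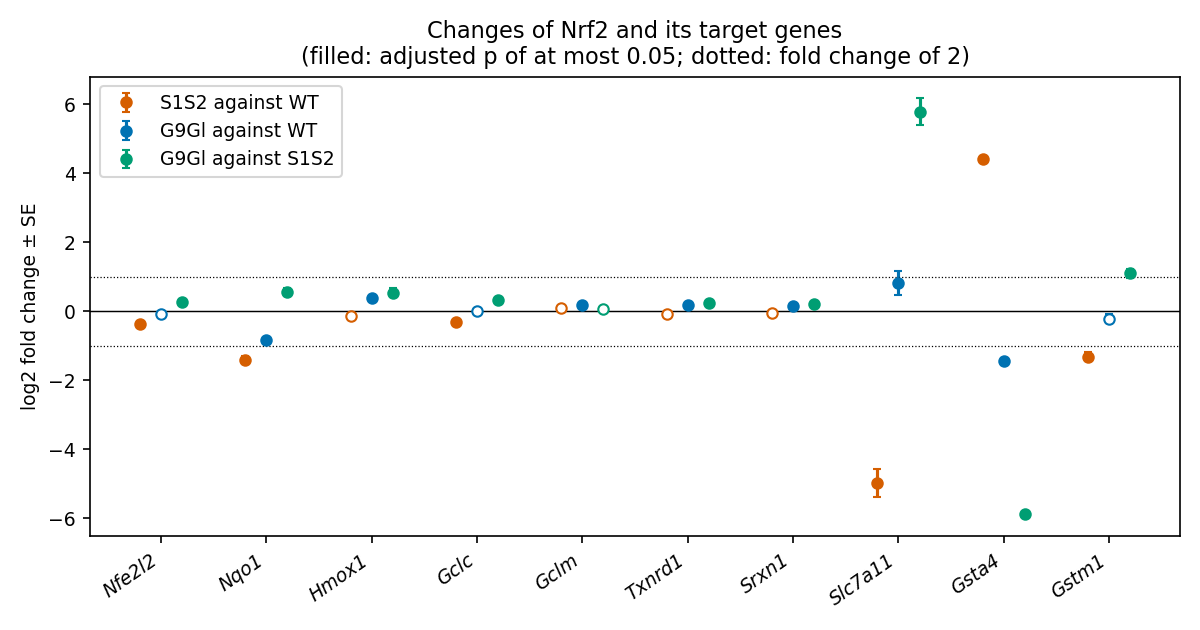
Log2 fold change of each of the 10 genes in the 3 comparisons, with bars of ± SE from 3 libraries per genotype, filled points for an adjusted p of at most 0.05 and dotted lines at a 2-fold change. Most points lie between the dotted lines, and in S1S2 against WT and between the mutants Slc7a11 and Gsta4 lie far outside them with opposite signs.

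Nfe2l2 (ENSMUSG00000015839.6, protein coding, GRCm38 chr2:75675513-75704641, minus strand) encodes Nrf2 itself and overlaps the small RNA gene Gm24996 on its own strand. It stood at 100, 92.1 and 103 CPM in the WT libraries, at 73.7, 73.1 and 83.9 in S1S2 and at 99.0, 91.2 and 90.2 in G9Gl. Every S1S2 library was below every WT and G9Gl library, and G9Gl overlapped WT. In S1S2 its level fell 1.28 times (-0.36 on the log2 scale, SE 0.081, adjusted p = 8.58e-05). In G9Gl the difference from WT did not pass the test (-0.08, SE 0.065, adjusted p = 0.303). Between the mutants Nfe2l2 was higher in G9Gl (0.28, SE 0.077, adjusted p = 7.15e-04).

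Of the genes that act on Nrf2, Keap1 did not pass the test against WT in either mutant. It stood at 67.6, 68.5 and 61.8 CPM in WT, 68.0, 74.0 and 72.4 in S1S2 and 58.9, 63.4 and 63.6 in G9Gl (adjusted p = 0.0852 and 0.185). Bach1, the repressor that competes for the ARE, fell in both mutants, by 0.35 (SE 0.045) in S1S2 and by 0.49 (SE 0.037) in G9Gl on the log2 scale. Its level was 54.2, 53.0 and 50.2 CPM in WT, 40.0, 42.9 and 40.7 in S1S2 and 36.8, 37.0 and 38.2 in G9Gl, with no overlap between either mutant and WT.

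RNA of the small Maf proteins, the partners with which Nrf2 or Bach1 binds DNA, was more abundant in S1S2. Mafk rose from 15.9 ± 2.23 CPM in WT to 30.0 ± 1.12 in S1S2 (0.92, SE 0.12) and 24.3 ± 1.49 in G9Gl (0.61, SE 0.13). Maff rose from 7.89 ± 0.415 to 14.0 ± 1.64 CPM in S1S2 (0.83, SE 0.10, adjusted p = 1.18e-05) and stood at 6.77 ± 1.10 in G9Gl (adjusted p = 0.148). Mafg was close to the threshold in S1S2 (0.17, SE 0.11, adjusted p = 0.0478). Nfe2l1, a relative of Nrf2 that governs proteasome genes, fell in S1S2 (-0.25, SE 0.12, adjusted p = 0.0104) and rose in G9Gl (0.26, SE 0.082, adjusted p = 0.00815).

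Over the whole list of 18 regulators, 7 rose and 6 fell in S1S2 and 6 rose and 5 fell in G9Gl. Of all tested genes, 25.3% rose and 23.6% fell in S1S2, and in G9Gl 24.1% rose, 21.8% fell and 10.2% were called. The median log2 fold changes of the 18 regulators were -0.02 and -0.09. The regulator called in G9Gl, Trim21, was singled out after its values were seen. It encodes a ubiquitin ligase and stood at 4.77 ± 0.937 CPM in WT and 15.9 ± 0.809 in G9Gl (1.73, SE 0.16).

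Slc7a11 (ENSMUSG00000027737.10, protein coding, chr3:49892526-50443614, minus strand) encodes the cystine-glutamate exchanger that brings cystine into the cell for glutathione synthesis. It stood at 30.1, 22.8 and 41.7 CPM in WT, from 977, 691 and 1293 counts. In S1S2 it was at 1.06, 0.620 and 1.41 CPM, from 23, 17 and 30 counts. In G9Gl it was at 75.1, 43.9 and 46.9 CPM, from 2139, 1221 and 1436 counts. The 3 genotypes did not overlap, though WT and G9Gl came close, and the highest S1S2 library was far below the lowest of any other genotype.

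Slc7a11 was 31.5 times lower in S1S2 than in WT (-4.98 on the log2 scale, SE 0.41, adjusted p = 1.86e-09). Leaving out any library kept this value between -5.27 and -4.68. In G9Gl it was 1.75 times WT (0.81, SE 0.35, adjusted p = 0.00168), but the spread between libraries was large, with a coefficient of variation of 30.1% in WT and 31.2% in G9Gl. This rise did not pass 0.05 in DESeq2 (0.82, adjusted p = 0.0692), and it ranged from 0.53 to 1.06 when a library was left out, the highest value, without WT replicate 3, being past 2-fold. Between the mutants Slc7a11 was 55.2 times higher in G9Gl (5.79, SE 0.40, adjusted p = 7.28e-11).

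The Slc7a11 gene overlaps Gm2345, Gm37826 and Gm37854 on the opposite strand and Gm37498 and Gm37692 on its own strand, and whether the counting used strand is not given in the sources used here. Gm37498, the overlapping gene on the same strand that was tested, averaged 0.597 CPM in WT and 0.0314 in S1S2, too few counts for a fold change. Reads of these 2 genes may not be separable. The nearest tested gene outside Slc7a11, Pcdh18, differed by -0.41 in S1S2 and -0.97 in G9Gl. Both neighbours were looked at after the values of Slc7a11 were known.

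Most genes of the amino acid response that ATF4 is known to control also fell in S1S2. Of the 14 genes of that list, 13 were tested, and 1 rose, 11 fell and 1 did not pass in S1S2, where 23.6% of all tested genes fell. The median log2 fold change was -0.78. In G9Gl, 4 rose and 3 fell, with a median of -0.03. The 5 that were called in S1S2, where 9.0% of all tested genes were called, were all lower there. The other 8 included the 1 that rose.

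Atf4 itself and Cbs are given here beside the called genes, outside the rule for named genes. Atf4 stood at 603, 557 and 708 CPM in WT, 326, 343 and 450 in S1S2 and 674, 543 and 592 in G9Gl (S1S2 against WT -0.74, SE 0.18, adjusted p = 1.57e-05). Vldlr, a lipoprotein receptor, had the largest fall of the list, from 115 ± 34.8 CPM in WT to 12.9 ± 6.37 in S1S2 (-3.17, SE 0.47). Cth, which makes cysteine from cystathionine and so feeds the same pool as Slc7a11, went from 24.0, 18.9 and 32.7 CPM to 7.17, 6.96 and 9.92 in S1S2 (-1.66, SE 0.28) and to 57.1, 30.5 and 37.8 in G9Gl (0.73, SE 0.35, adjusted p = 0.00433). Cth had the direction of Slc7a11 in both mutants, but its G9Gl libraries overlapped those of WT. Atf5 (-1.45, SE 0.28), Ddit4 (-1.11, SE 0.19) and the asparagine synthetase gene Asns (-1.03, SE 0.26) were the other called genes in S1S2. Cbs, which acts just before Cth in making cysteine from homocysteine, was the exception, with a rise in S1S2 (0.59, SE 0.18, adjusted p = 0.0223) and a fall in G9Gl (-0.83, SE 0.11, adjusted p = 0.00647).

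The spread of Slc7a11 between libraries of a genotype went along with that of the ATF4 list. Its deviation from the genotype mean on the log2 scale was -0.03, -0.42 and 0.45 in WT, 0.10, -0.60 and 0.50 in S1S2 and 0.48, -0.29 and -0.19 in G9Gl. The median deviation of the 13 ATF4 list genes was -0.04, -0.16 and 0.19 in WT, -0.18, -0.15 and 0.37 in S1S2 and 0.20, -0.14 and -0.09 in G9Gl. The library with the highest Slc7a11 in each genotype was thus also the highest in the list median.

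Over the 9 libraries the correlation of these deviations with Slc7a11 had a median Pearson's r of 0.82 for the 13 genes, from -0.58 for Cbs to 0.91 for Ddit3. It is a description only, since the genes share the same libraries. In 10 of the 13 genes, 76.9%, the library with the highest level was that of Slc7a11 in all 3 genotypes. The same was true of 1441 of the 15539 other tested genes, or 9.27%, and over these genes the median r was 0.01, with 2.76% at 0.82 or above. The list was chosen with earlier results of these data known, and it was not tested against the other genes. For the other 9 Nrf2 genes the median r was 0.38. Nfe2l2 (0.89) and Hmox1 (0.80) were the members that shared the highest library in all 3 genotypes, and Txnrd1 was at -0.71.

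**Figure D3:**
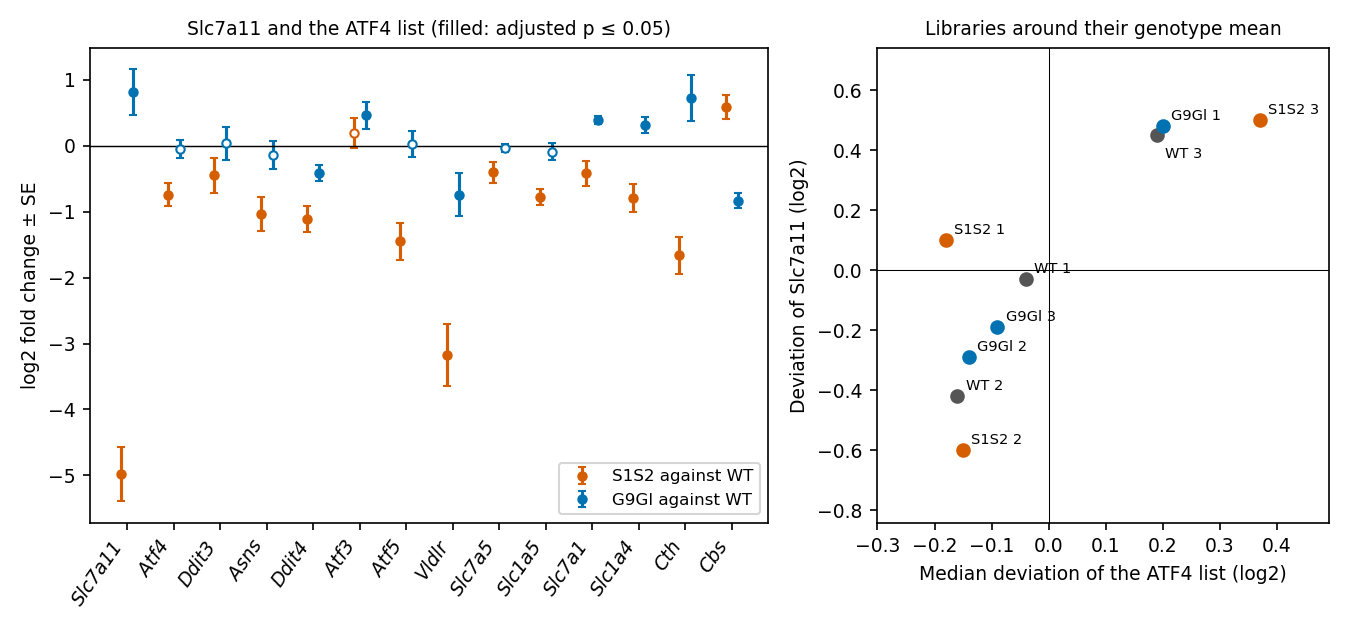
Left, log2 fold change (± SE, 3 libraries per genotype) of Slc7a11 and the 13 tested genes of the ATF4 list in each mutant against WT, with filled points for an adjusted p of at most 0.05. Right, deviation of Slc7a11 from its genotype mean against the median deviation of the ATF4 list in each of the 9 libraries, where WT 3, S1S2 3 and G9Gl 1 lie at the upper right.

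Gclc (ENSMUSG00000032350.8, chr9:77754535-77794485, plus strand) encodes the catalytic subunit of glutamate-cysteine ligase, the rate-limiting enzyme of glutathione synthesis. It stood at 51.2, 50.6 and 51.8 CPM in WT, 44.1, 39.6 and 40.5 in S1S2 and 53.6, 48.7 and 53.4 in G9Gl. All S1S2 libraries were below all others, and WT lay inside the range of G9Gl. Gclc fell in S1S2 (-0.31, SE 0.048, adjusted p = 1.93e-04) and did not pass the test in G9Gl (0.02, SE 0.046, adjusted p = 0.795).

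Gclm (ENSMUSG00000028124.15, chr3:122245557-122270732, plus strand) encodes the modifier subunit of the same enzyme. Its level was 60.0, 56.8 and 57.8 CPM in WT, 64.2, 62.7 and 61.4 in S1S2 and 69.2, 64.3 and 63.2 in G9Gl. WT was the lowest genotype, and the mutants overlapped each other. Gclm rose in G9Gl (0.17, SE 0.046, adjusted p = 0.00815), a call that was lost without G9Gl replicate 1 (0.13, adjusted p = 0.0567), and in S1S2 it did not pass the test (0.11, SE 0.030, adjusted p = 0.0804). Gclm overlaps Gm6061 on its own strand and Gm17494 on the opposite strand.

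Of the 16 listed genes of glutathione synthesis and reduction beside these, 11 were tested, with 4 up and 4 down in S1S2. In G9Gl, 3 of the 11 were up and 8 did not pass an adjusted p of 0.05. Oplah, which recycles oxoproline to glutamate in the glutathione cycle, was the called gene in S1S2. It fell from 11.5, 10.9 and 13.5 CPM in WT to 4.50, 3.46 and 4.89 (-1.50, SE 0.17, adjusted p = 3.45e-08) and stood at 13.6, 11.9 and 12.6 in G9Gl.

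Txnrd1 (ENSMUSG00000020250.9, chr10:82833951-82897712, plus strand) encodes the cytosolic thioredoxin reductase, and was the most abundant member in WT. It stood at 356, 362 and 337 CPM in WT, 335, 337 and 331 in S1S2 and 396, 399 and 402 in G9Gl. All G9Gl libraries were above all others, and the highest S1S2 library reached the level of the lowest WT library. Txnrd1 rose in G9Gl (0.18, SE 0.032, adjusted p = 9.59e-04) by 1.13 times. In S1S2 the value was -0.07 (SE 0.032, adjusted p = 0.136), and it passed without WT replicate 3 (-0.11, adjusted p = 0.0264). Txnrd1 overlaps Eid3 on its own strand and Gm38560 and Gm47073 on the opposite strand.

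Srxn1 (ENSMUSG00000032802.8, chr2:152105516-152111376, plus strand) encodes sulfiredoxin, which repairs overoxidized peroxiredoxins. It stood at 42.9, 43.0 and 45.4 CPM in WT, 43.1, 40.9 and 43.1 in S1S2 and 47.6, 48.7 and 50.5 in G9Gl. The G9Gl libraries were again above all others. The rise in G9Gl (0.16, SE 0.036, adjusted p = 0.0137) was lost without WT replicate 1 (adjusted p = 0.063), without G9Gl replicate 3 (0.0639) and without a composition factor (0.0515). In S1S2 the value was -0.05 (SE 0.036, adjusted p = 0.477).

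The 10 other genes of the thioredoxin and peroxiredoxin list did not follow Txnrd1 and Srxn1 in G9Gl. There 5 fell and 5 did not pass the test, with a median of -0.12. In S1S2, 2 rose and 1 fell. Prdx5, a peroxiredoxin of mitochondria and peroxisomes, was at 52.1 CPM in WT and 99.4 in S1S2 (0.93, adjusted p = 7.39e-11), and Prdx6 was at 193 in WT and 126 in S1S2 (-0.61, adjusted p = 7.23e-09). These 2 were picked after their values were seen.

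Nqo1 (ENSMUSG00000003849.8, chr8:107388225-107403206, minus strand) encodes a quinone reductase and is the classical readout of Nrf2 activity. It stood at 26.6, 24.2 and 27.9 CPM in WT, 11.4, 8.82 and 9.55 in S1S2 and 14.1, 14.3 and 15.7 in G9Gl. The 3 genotypes did not overlap, with WT highest and S1S2 lowest. Nqo1 fell 2.66 times in S1S2 (-1.41, SE 0.13, adjusted p = 1.23e-09) and 1.78 times in G9Gl (-0.84, SE 0.077, adjusted p = 3.39e-07). It was the member besides Gsta4 that fell in G9Gl, and the member that fell in both mutants. Between the mutants it was higher in G9Gl (0.57, SE 0.12, adjusted p = 7.98e-05).

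Hmox1 (ENSMUSG00000005413.7, chr8:75093621-75100589, plus strand) encodes heme oxygenase, which breaks down heme. It stood at 75.2, 74.0 and 78.7 CPM in WT, 64.0, 64.5 and 78.7 in S1S2 and 112, 95.3 and 93.4 in G9Gl. The G9Gl libraries were above all others, and in S1S2 a single library, replicate 3, was at the level of WT. Hmox1 rose in G9Gl (0.40, SE 0.088, adjusted p = 2.72e-04). In S1S2 the difference did not pass the test (-0.14, SE 0.10, adjusted p = 0.145), and without S1S2 replicate 3 it was -0.24 with an adjusted p of 0.00989. This library was also the S1S2 library with the highest ATF4 list and the highest Nfe2l2.

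Among the quinone, aldehyde and conjugation enzymes, 4 of 11 tested genes rose and 5 fell in S1S2, and 3 rose and 4 fell in G9Gl. Cbr3, a carbonyl reductase, had the direction of Gsta4 in both mutants. Its level was 1.69, 1.29 and 1.45 CPM in WT, 9.01, 7.07 and 7.90 in S1S2 and 0.140, 0.108 and 0.0653 in G9Gl, where 4, 3 and 2 counts were behind it. Cbr3 rose in S1S2 (2.42, SE 0.15, adjusted p = 1.43e-09) and fell in G9Gl (-3.78, SE 0.21, adjusted p = 5.66e-08). Ces1g, a carboxylesterase, had 2, 5 and 1 counts in WT, none in S1S2 and 223, 261 and 318 in G9Gl. Against a floor of 3 counts per library, it was at least 71.1-fold higher in G9Gl than in S1S2.

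In the heme and iron list of 9 genes, 3 rose and 3 fell in S1S2 and 2 rose and 4 fell in G9Gl. Slc40a1, the iron exporter ferroportin, had the direction of Slc7a11 in both mutants. It stood at 10.6, 10.4 and 16.5 CPM in WT, 1.10, 2.00 and 1.55 in S1S2 (-2.98, SE 0.32, adjusted p = 4.3e-09) and 25.4, 23.0 and 20.9 in G9Gl (0.88, SE 0.23, adjusted p = 6.53e-05). The ferritin genes Fth1 and Ftl1, named here after their values were seen, differed by 0.13 (adjusted p = 0.0526) and -0.00 (adjusted p = 0.962) in S1S2 and by -0.22 and -0.23 in G9Gl (adjusted p = 0.00255 and 8.56e-04).

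Gsta4 (ENSMUSG00000032348.5, chr9:78182774-78209349, plus strand) encodes a glutathione S-transferase that conjugates 4-hydroxynonenal, a product of lipid peroxidation. It stood at 11.1, 10.1 and 12.4 CPM in WT, from 362, 306 and 386 counts. In S1S2 it was at 240, 242 and 234 CPM, from 5218, 6644 and 4983 counts. In G9Gl it was at 3.83, 4.2 and 4.31 CPM, from 109, 117 and 132 counts. The 3 genotypes were far apart, and replicates lay close together, with a coefficient of variation of 1.68% in S1S2.

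Gsta4 rose 21.2 times in S1S2 (4.41, SE 0.087, adjusted p = 2.59e-18), and fell 2.73 times in G9Gl (-1.45, SE 0.10, adjusted p = 2.8e-10). Between the mutants it was 58.0 times lower in G9Gl (-5.86, SE 0.053, adjusted p = 1.55e-19). It was the member that rose in S1S2, and no stretch of read length in its transcript was shared with another gene.

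Gsta1, the neighbour of Gsta4 on chromosome 9 at 78230656 to 78242684, was also found in S1S2 cells. It had 80, 81 and 75 counts in S1S2, against 0, 1 and 0 in WT and 1, 2 and 3 in G9Gl. Against a floor of 3 counts per library, Gsta1 was at least 35.3-fold higher in S1S2 than in WT and at least 32.7-fold higher than in G9Gl. Within 300 kb of Gsta4, a distance chosen after its values were seen, 10 genes were tested. In S1S2, 4 of them rose and 1 fell, and Gsta1 was the called gene. The log2 fold changes of the other 9 lay between -0.18 for Elovl5 and 0.29 for Cgas, so a large rise was seen for the pair of transferase genes and for none of the 9 others tested.

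Gstm1 (ENSMUSG00000058135.12, chr3:108012255-108017973, minus strand) encodes a transferase of the mu class. It stood at 13.4, 12.8 and 15.1 CPM in WT, 6.25, 5.36 and 4.98 in S1S2 and 12.6, 10.4 and 12.6 in G9Gl. S1S2 was below all other libraries, and the highest G9Gl library was just below the lowest WT library. Gstm1 fell 2.49 times in S1S2 (-1.31, SE 0.12, adjusted p = 4.65e-08) and did not pass the test in G9Gl (-0.21, SE 0.12, adjusted p = 0.103). Of the read-length stretches of its transcript, 14.8% also occur in Gstm2-ps1, Gstm3 or Gm8834, so its level is less certain than that of the other members. For Slc7a11 that share was 0.929%, and it was 0 for the other 8 genes.

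The mu class genes lie side by side on chromosome 3, and 4 of them fell together in S1S2. Beside Gstm1, they were Gstm2 (11.8 ± 1.09 CPM in WT against 3.53 ± 0.378 in S1S2, -1.75, SE 0.12), Gstm5 (-0.51, adjusted p = 2.19e-04) and Gstm4 (-3.39, SE 0.55, adjusted p = 5.76e-04). Gstm4 rested on 12, 18 and 16 counts in WT and on 0, 0 and 3 in S1S2, so that it was at least 3.81-fold higher in WT against a floor of 3 counts per library. In G9Gl, Gstm2 and Gstm4 rose (1.44, SE 0.099, and 1.37, SE 0.21), while Gstm5 did not pass the test (-0.01, adjusted p = 0.926). Gstm2 reached 33.3, 33.3 and 29.1 CPM there. Gstm4 and Gstm5 were added after their values were seen. The 4 genes thus shared their direction in S1S2 and not in G9Gl.

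Within 300 kb of Gstm1, 16 other genes were tested, and 8 rose and 4 fell in S1S2, while in G9Gl 6 rose and 10 did not pass an adjusted p of 0.05. The 4 that fell in S1S2 were Gstm2, Gstm4, Gstm5 and 4933431E20Rik, which overlaps Gstm5. Csf1 and Amigo1, also in the window, rose in S1S2 (1.19 and 1.10). The fall in S1S2 was thus found in the transferase genes and a gene that overlaps them, among neighbours that mostly rose or did not pass.

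**Figure D4:**
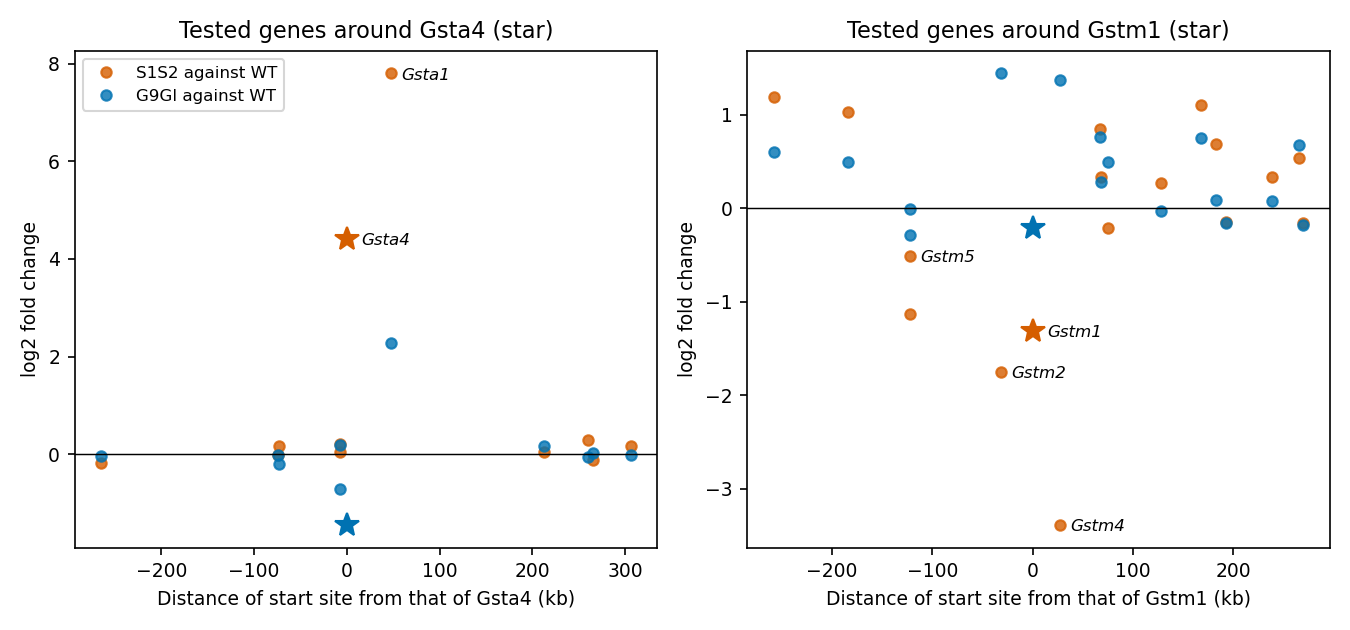
Log2 fold change in S1S2 (orange) and G9Gl (blue) against WT of the tested genes around Gsta4 (left) and Gstm1 (right, stars), by distance of start sites in kb, with transferase genes named beside their S1S2 value. Gsta4 and Gsta1 stand above their neighbours in S1S2, and Gstm1, Gstm2, Gstm4 and Gstm5 lie below 0. The fitted value of Gsta1 rests on at most 1 count per WT library and is not a bound.

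Over the 23 other glutathione S-transferase genes listed, 15 were tested, with 6 up and 5 down in S1S2 and 7 up and 2 down in G9Gl. The median log2 fold change was -0.14 in S1S2 and 0.52 in G9Gl. Mgst2, a microsomal transferase, was the remaining gene of this list singled out by size, with 3.05, 2.94 and 2.19 CPM in WT and 6.77, 7.90 and 7.18 in G9Gl (1.42, SE 0.16, adjusted p = 2.26e-06). Family members with near-identical sequence can share reads, and these levels are uncertain to that extent.

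Over the whole wider list of 93 further genes of the antioxidant response, 74 were tested. In S1S2, 26 rose and 26 fell, with a median log2 fold change of 0.00, and in G9Gl 21 rose and 20 fell, with a median of 0.02. These were 35.1% up and 35.1% down in S1S2 and 28.4% and 27.0% in G9Gl, beside 25.3% and 23.6% and beside 24.1% and 21.8% of all tested genes. Rises and falls were thus about equal in number in the wider list, whose median lay nearer to that of all tested genes than the median of the 10 members did.

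Of the 7 tested genes in the rest of the wider list, named other stress response, 1 rose and 5 fell in S1S2. There 4 were called lower, where 9.0% of all tested genes were called, and the median log2 fold change was -1.24. In G9Gl, 1 rose and 1 fell, with a median of 0.17. Between the mutants 5 were higher and 2 lower in G9Gl, with 5 called higher, where 13.1% of all tested genes were called. The called genes of this list follow Abcg2, which is from the list of export pumps. Abcg2, a pump that exports drugs and porphyrins, rose in G9Gl from 41.7, 44.0 and 45.9 CPM to 149, 153 and 166 (1.83, SE 0.061) and did not pass the test in S1S2 (-0.04, adjusted p = 0.569). Pir, an iron-binding nuclear protein induced by Nrf2, fell in S1S2 from 11.2, 10.3 and 12.3 CPM to 2.53, 3.10 and 3.53 (-1.89, SE 0.15). Htatip2, a short-chain dehydrogenase relative, fell in S1S2 (-1.68, SE 0.36) and rose in G9Gl (1.41, SE 0.11) at a level of 0.914 ± 0.112 CPM in WT. Trib3, which is also known as a target of ATF4, fell in S1S2 from 120, 99.1 and 149 CPM to 28.8, 28.4 and 65.4 (-1.60, SE 0.43), and so did the glycine transporter Slc6a9 (-1.24, SE 0.30). In both of these genes the highest S1S2 library was replicate 3, as for Slc7a11. In the NADPH supply list of 6 genes, 3 rose and 2 fell in S1S2 and 2 rose and 2 fell in G9Gl, with log2 fold changes from -0.70, for Idh1 in G9Gl, to 0.57, for Me1 in G9Gl, both named after their values were seen. Of 5 export pumps tested, 3 rose and 1 fell in S1S2, and 3 rose and 2 fell in G9Gl.

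A list of metallothionein and heat shock genes, kept apart from the wider list, was mostly higher in S1S2 and more often lower than higher in G9Gl. Of its 10 genes, 9 rose in S1S2 and 1 did not pass, with a median of 0.34, where 25.3% of all tested genes rose. In G9Gl, 1 rose, 6 fell and 3 did not pass, with a median of -0.17, where 24.1% of all tested genes rose and 21.8% fell. The metal-binding Mt1 and Mt2 stood at 54.2 and 8.49 CPM in WT, 67.3 and 13.9 in S1S2 and 23.8 and 2.12 in G9Gl (G9Gl against WT -1.18, SE 0.063, and -2.0, SE 0.24). Hspb1, a small heat shock protein, rose in both mutants (1.11, SE 0.084, and 1.29, SE 0.10). The chaperone Hspa1a had 83, 69 and 60 counts in S1S2, 5, 5 and 1 in WT and none in G9Gl, and Hspa1b fell in G9Gl (-1.58, SE 0.22). Of the 4 tested genes for superoxide dismutases and catalase, 1 rose and 2 fell in each mutant, and the largest difference was that of Cat in G9Gl (0.60, adjusted p = 2.71e-09), singled out after its value was seen.

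Likeness of pattern among the 10 genes was described by Pearson's r of log2 CPM over the 9 libraries, which fall into 3 genotypes and are not independent points. Gclc and Gstm1 were the most alike (0.96), and Gclc was also the closest to Slc7a11 (0.95). Nfe2l2 was closest to Slc7a11 (0.90), Nqo1 to Gstm1 (0.88), Txnrd1 to Srxn1 (0.85) and Hmox1 to Srxn1 (0.84). Gclm had no closer member than Hmox1 (0.52). Gsta4 ran opposite to the set, from -0.98 with Slc7a11 to -0.07 with Gclm. Among all tested genes, the pattern of Nfe2l2 was most like that of Slc25a16 (0.9903), Stc2 (0.9881) and Mtbp (0.988).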

How the data were processed

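RNA sequencing of 9 MEF libraries, 3 per genotype, was analysed. Per the labels and the study's methods, the authors sequenced stranded total RNA in paired-end reads, used cutadapt for trimming and STAR (2.5.2b in the submitters' processing notes) for alignment to GRCm38, and counted genes with TEtranscripts. The deposited table gives, for each Ensembl gene, whole read counts that were not normalized. The annotation release and the strand setting of the counting are not given in the sources used here, and TEtranscripts shares reads that align to several places, so genes with close copies or overlapping genes are uncertain. Of 47937 identifiers, 47310 matched GENCODE M21.

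In R 4.3.3, edgeR 4.0.16 was fitted to all 9 libraries at once, with a term for each genotype, and contrasts were tested with its quasi-likelihood F test after TMM scaling and filterByExpr, with Benjamini-Hochberg adjustment over all 15540 tested genes. All adjusted p-values in the text come from this test unless DESeq2 1.42.0 is named. Values are CPM scaled by TMM. SEs come from the spread of log2 CPM with a prior count of 2. The common biological coefficient of variation was 5.36%. Replicates differed by more than counting noise. The labels do not say whether replicates are separate cultures, so p-values measure only the spread between these libraries, which may be technical. The study's methods were taken to describe these libraries too. Floors of 3 counts cover counting error only, since reads carry no molecular identifiers. The test was tried on simulated counts first.

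The members and lists were chosen with earlier results of these data known. Named were the 10 members, the 4 targeted genes, 6 regulators and, from the other lists, the called genes (adjusted p up to 0.01, 2-fold or more) that averaged over 1 CPM. For likeness of pattern, the closest other member and, for Nfe2l2, the 3 closest genes were named. All other genes in the text were named after their values were seen. Alternatives were DESeq2, its size factors in edgeR, library sizes without a composition factor, all genes unfiltered, genes with 10 or more counts in each library, separate fits of the genotypes compared, the replicate number as a block, and 1 library left out at a time.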

Additional observations from a re-analysis of the deposited data

Results flagged for a closer look

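For 2 of the 10 genes each mutant passed the test against WT, in opposite directions, and the difference between the mutants passed as well. Other members also differed between the mutants, but Nqo1 fell in both, and the rest passed against WT in 1 mutant. Slc7a11 was lower than WT in all S1S2 libraries and higher in all G9Gl libraries, and G9Gl exceeded S1S2 by 5.79 on the log2 scale (adjusted p = 7.28e-11, edgeR). The Slc7a11 part of G9Gl against WT was the less firm, since it did not pass in DESeq2. Gsta4 was higher than WT in all S1S2 libraries and lower in all G9Gl libraries, at -5.86 on the log2 scale in G9Gl against S1S2 (adjusted p = 1.55e-19, edgeR). Each mutant is 1 clone, so clone and genotype cannot be told apart in either result.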

How the results depend on the processing

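Each member's value in the 3 comparisons was recomputed under 16 alternatives, 480 values in all. No value past the threshold changed sign, 471 stayed on the same side of the threshold, 5 lost a call and 4 gained one. Gclc in G9Gl, which did not pass, went from 0.02 to -0.01 without a composition factor and to -0.00 without G9Gl replicate 1. With all libraries kept, the calls that changed were Slc7a11 in G9Gl with DESeq2 (0.82, adjusted p = 0.0692), Srxn1 in G9Gl without a composition factor (0.13, adjusted p = 0.0515), Hmox1 in S1S2 without a filter (-0.16, adjusted p = 0.0189) and Txnrd1 in S1S2 without a composition factor (-0.10, adjusted p = 0.0431). The other 5 came from leaving out a library and stand beside the genes. The cause was not tested. When a library was left out, 6 to 7 members passed in S1S2, 6 to 7 in G9Gl and 9 between the mutants. The number called stayed at 4 in S1S2 and 3 between the mutants, and in G9Gl it was 1 to 2, with 2 without WT replicate 3. The wider list had 46 to 55, 36 to 43 and 50 to 57 genes past the threshold.

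Over all tested genes, the deviations of same-numbered libraries correlated between -0.0686 and 0.124. No general pairing by replicate number was seen, but these values cannot exclude it for single genes. Slc7a11 was lowest in replicate 2 of each genotype, with deviations of -0.42, -0.60 and -0.29 in WT, S1S2 and G9Gl. With the replicate block, 7589 of all tested genes passed in S1S2 (7599 without it), and 6, 7 and 9 members passed, as without it. Slc7a11 in G9Gl against WT was at 0.81 with and without the block, with an edgeR adjusted p of 7.2e-05 under it and 0.00168 without it. The precision of a member is limited by 3 libraries of 1 clone per genotype, and at 17 to 30 counts for Slc7a11 in S1S2 also by depth.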

Other observations

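A pair of transferase genes outside the rule for named genes was picked after their values were seen. Gstp2 averaged 1.45 CPM in S1S2, had 4, 3 and 1 counts in WT and was at or below 3 counts in each G9Gl library. It rose in S1S2 against WT (4.01, adjusted p = 1.03e-06), a value that rests on few WT counts. In G9Gl it did not pass the test against WT (-0.53, adjusted p = 0.63) and was at least 14-fold below S1S2. Gstt1 stood at 13.1 CPM in WT and rose in S1S2 (log2 fold change 0.99, adjusted p = 2.25e-08) and in G9Gl (0.68, adjusted p = 2.44e-06). Gstp2 belongs to a family of close copies, so its level is uncertain.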
